A study of Mus musculus with 5 samples.

Results

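The unfolded protein response and the integrated stress response were followed through 35 genes: sensors, transcription factors, endoplasmic reticulum (ER) chaperones, disulfide isomerases, degradation factors and stress targets. The members were taken by symbol, through the gene identifiers of the count tables and the mouse GENCODE M21 annotation, from 55411 genes in all. The 35 symbols matched 36 identifiers, because *Ddit3* has a second, 105-base entry without a single count in any library, and the longer entry was used. All samples were olfactory sensory neurons of mice homozygous for the Olfr151tm26Mom allele, a knockin in which cells that transcribe the odorant receptor gene *Olfr151* also make a green fluorophore (GFP), so that live GFP-positive neurons could be sorted from the main olfactory epithelium. The mice were males aged 7 weeks, in pools of 4. Control pools 1, 2 and 3 had been kept for 5 h with DMSO, the solvent, and exposed pools 1 and 3 for 5 h with 5% acetophenone in DMSO. Acetophenone is a known agonist of the receptor, and the comparison asks how the RNA of these neurons differs after a long exposure to it. Exposed pool 2 was not analysed here. The labels give 200 sorted cells per pool, and another field of the same labels gives a larger number. The knockin allele is present in both conditions, and no mice without it were compared.

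The ER folds secreted and membrane proteins, odorant receptors among them. When unfolded proteins build up there, the membrane sensors PERK (*Eif2ak3*), IRE1α (*Ern1*) and ATF6 are released from the chaperone BiP (*Hspa5*). PERK phosphorylates the translation factor eIF2α, which lowers protein synthesis while favouring translation of *Atf4*; other kinases that sense amino acid shortage, viral RNA or heme shortage converge on eIF2α, and this shared branch is the integrated stress response. IRE1α splices the *Xbp1* mRNA into the form that encodes an active factor, and ATF6 is cleaved in the Golgi to become one. In olfactory sensory neurons the first receptor protein made is known to engage PERK and the translation of *Atf5*, as part of the feedback that stabilises the choice of 1 receptor. Phosphorylation, splicing, cleavage and translation were not measured here. The values below are read counts per gene, in which spliced and unspliced *Xbp1* count together.

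Values per library are given in the order of the pool numbers throughout. The RNA libraries held 42780403 to 49527380 counts, and 3 counts corresponded to 0.0607 to 0.0704 CPM (counts per 1000000 counts of the library). A gene was called when the quasi-likelihood test of edgeR gave an adjusted p under 0.1 and the absolute log2 fold change of exposed against control pools exceeded 0.5. All 8 markers of mature olfactory sensory neurons were detected in every library. Their summed level lay between 59030 and 63450 normalised CPM in the control pools and between 50800 and 51710 in the exposed pools. Of the 8, 3 were called lower after exposure (*Cnga2*, *Cnga4* and *Rtp1*), where 1.85% of all genes tested were. *Cnga2* and *Cnga4* belong to the odorant transduction cascade. *Omp* was lower in both exposed pools without being called, and *Gnal*, *Adcy3*, *Ano2* and *Stoml3* overlapped between conditions. The 6 markers of immature olfactory sensory neurons summed to 1750 to 2002 CPM in control and 2045 to 2152 CPM in exposed pools, a sum in which *Ncam1* alone had 1341 to 1634 CPM and overlapped between conditions. Of the other 5, *Gap43* was called higher, with 1.92 times its control mean. *Gng8* had 2.19, *Stmn1* 2.31 and *Dpysl3* 2.49 times the control mean, with both exposed pools above all control pools and an unadjusted p under 0.05 in edgeR. *Tubb3*, also under 0.05, had 0.658 times the control mean. These differences are of the size seen in the called members below. Myeloid markers, 10 genes, summed to 372, 32.8 and 19.8 CPM in control pools 1, 2 and 3 and to 409 and 53.2 CPM in exposed pools 1 and 3. Sustentacular and gland cell markers lay between 92.9 and 264 CPM in all 5 libraries, and those of ensheathing glia, endothelium and erythrocytes at 328 CPM in control pool 1 and between 13.2 and 111 CPM elsewhere, with *Cdh5* at 0 throughout. Plasma cells, which are rich in ER proteins, left 5.44 CPM or less in any library, with *Mzb1* and *Tnfrsf17* at 0 throughout. Of the 11 tested markers of these other cell types, 0 were called in edgeR, 2 had an unadjusted p under 0.05 and DESeq2 called 1. The leukocyte gene *Ptprc*, 1 of the 2 under 0.05, was counted 0, 54 and 1 times in the controls, against 542 and 517 times after exposure. It passed the count filter through the exposed pools alone. Among the other myeloid markers, *Tyrobp* also had both exposed pools above all control pools. The rest overlapped between conditions, with *C1qb* and *C1qc* at 0.206 and 0.158 times the control mean. The part of these cell types and of neuronal maturity in the values of the members was not tested.

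Promoters of several members carry known control elements, and those found are shown because they group the members by the factor that can read them. The ER stress response element (ERSE), read by ATF6 together with NF-Y, consists of CCAAT, 9 bases of any kind and CCACG. The core of the unfolded protein response element (UPRE), read by XBP1 and ATF6, is TGACGTG. The C/EBP-ATF response element (CARE), which ATF4 can read, is TGATGNAA. Both strands were searched from 250 bases before to 50 bases after each gene start in RefSeq (GRCm38.p6), a window held for 30 of the 35 members. The ERSE was found in 9 of the 30 (30.0%), and in 0.119% of all 32851 promoters. The CARE was found in 4 members (13.3%, against 3.97% of all promoters), and the UPRE core in *Hspa5* (3.33%, against 2.01%), at some distance from its ERSE. The motifs did not overlap each other in any member. The ERSE was first described in promoters of ER chaperone genes such as these, so its share here describes the members and is not a separate result. *Asns*, *Chac1* and *Trib3*, which hold a CARE, were listed as integrated stress response targets and feedback genes. The CARE share therefore also describes the members and is not a separate result. The matches follow with the fixed letters in capitals and each site written on the strand that holds it, first for the ERSE.
*Hspa5*: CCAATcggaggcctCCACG
*Hsp90b1* (the farther match): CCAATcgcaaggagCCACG
*Hsp90b1* (the nearer match): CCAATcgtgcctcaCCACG
*Calr*: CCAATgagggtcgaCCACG
*Canx*: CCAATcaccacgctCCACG
*Creld2*: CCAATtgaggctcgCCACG
*Dnajc3*: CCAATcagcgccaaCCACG
*Pdia6*: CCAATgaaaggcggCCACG
*Syvn1*: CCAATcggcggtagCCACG
*Derl3*: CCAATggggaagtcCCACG

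The CARE matches were short. That of *Trib3* lay 15 to 22 bases after the gene start, and those of the other genes lay before it.
*Asns*: TGATGAAA
*Chac1*: TGATGCAA
*Herpud1*: TGATGCAA
*Trib3*: TGATGTAA

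The 250 bases before the start of 3 members show how these elements sit in a whole promoter, with the motif letters again in capitals and each promoter written on the strand of its gene. *Hspa5* encodes BiP (chr2:34771840-34772089, plus strand), with the UPRE core at bases -157 to -151 from the start and the ERSE at -65 to -47. *Hsp90b1* encodes the chaperone GRP94 (chr10:86705445-86705694, minus strand) and holds an ERSE at -212 to -194 and a second one, on the opposite strand, at -107 to -89. *Asns* encodes asparagine synthetase (chr6:7693210-7693459, minus strand) and holds its CARE at -23 to -16.
*Hspa5*: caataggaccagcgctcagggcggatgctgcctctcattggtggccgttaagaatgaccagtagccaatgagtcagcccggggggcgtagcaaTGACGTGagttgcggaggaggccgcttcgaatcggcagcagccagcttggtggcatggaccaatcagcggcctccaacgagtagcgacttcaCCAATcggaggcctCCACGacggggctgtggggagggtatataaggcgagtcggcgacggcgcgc
*Hsp90b1*: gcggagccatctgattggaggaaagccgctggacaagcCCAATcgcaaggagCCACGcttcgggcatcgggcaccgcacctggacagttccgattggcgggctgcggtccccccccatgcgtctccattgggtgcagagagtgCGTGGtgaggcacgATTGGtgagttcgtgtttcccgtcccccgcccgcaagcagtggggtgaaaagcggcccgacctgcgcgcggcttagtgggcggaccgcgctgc
*Asns*: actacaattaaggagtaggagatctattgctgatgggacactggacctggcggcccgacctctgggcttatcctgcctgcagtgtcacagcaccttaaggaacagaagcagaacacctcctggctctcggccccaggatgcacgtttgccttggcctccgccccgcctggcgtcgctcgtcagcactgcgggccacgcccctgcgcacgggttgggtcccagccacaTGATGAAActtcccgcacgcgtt

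In the control pools, chaperone and isomerase genes were among the highest members, and the sensor genes *Ern1* and *Eif2ak3* among the lowest. The TPM scale (transcripts per 1000000) corrects for gene length and lacks the TMM scaling between libraries that normalised CPM have. On it the 35 genes together took 6542, 7358 and 7939 TPM in control pools 1, 2 and 3, and 7321 and 6978 TPM in exposed pools 1 and 3. The highest mean in the control pools was that of *Pdia3*, a disulfide isomerase for glycoproteins, at 712 ± 2.11 TPM (SD, n = 3; rank 158 of all genes). *Hspa5* followed at 701 ± 80.4 TPM, a difference smaller than the spread of the *Hspa5* values, and it was the highest over all 5 libraries with a mean of 732 TPM. The phosphatase subunit gene *Ppp1r15a* (574 ± 103), *Herpud1* (527 ± 67.8), *Calr* (500 ± 100) and *Hsp90b1* (467 ± 37.1) came next, and their values overlapped among the control pools. Among transcription factors, *Atf4* stood at 325 ± 10.2 TPM, *Atf5* at 253 ± 68.1, *Ddit3* at 169 ± 22.8 and *Xbp1* at 98.8 ± 29.8. Among the sensors, *Atf6* was at 58.6 ± 17.1 TPM, close to the co-chaperone gene *Dnajc3* (63.8 ± 10.6) and to *Asns* (53.7 ± 9.65), whereas *Eif2ak3* was at 17.8 ± 11.5 and *Ern1* at 5.09 ± 0.532 TPM. The lowest member was *Derl3*, a derlin of secretory cells, counted 71, 44 and 6 times in the controls, against 5 and 0 times after exposure. It was at 1.50 ± 1.21 TPM in control pools and was too low to be tested. The plot of levels by library shows the order and the small distance between most libraries.

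**Figure D1:**
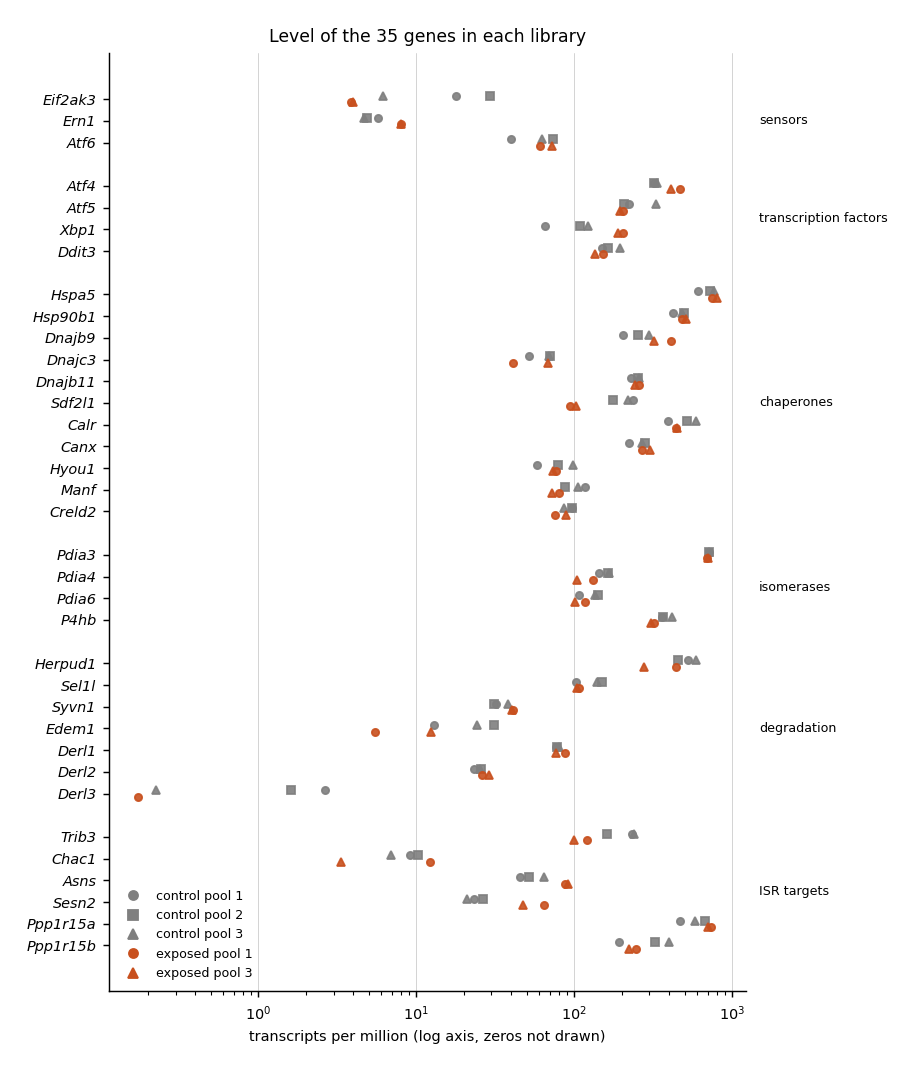
Level of each of the 35 genes in TPM (log axis) in 3 control pools (grey) and 2 exposed pools (orange), grouped by role, with the pool number as the symbol. Most genes keep their place between libraries, with *Pdia3* and *Hspa5* highest (712 and 701 TPM in control pools) and *Ern1* at 5.09 TPM, while *Eif2ak3* spreads widely among the control pools and *Derl3* lies lowest.

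Among the 34 members tested, the highest control pool exceeded the lowest by a median factor of 1.29 in normalised CPM, against 1.53 over all 10047 genes tested, a difference that was not tested and not matched for expression level. In 8 of the 34 the factor was above that of the median gene. This factor was above 2 for only 2 of the 34, *Eif2ak3* (4.51) and *Edem1* (2.12), and for 25.9% of all genes tested.

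After exposure, 3 members rose and none passed the test in the other direction. Of the 10047 genes tested, 344 were called higher after exposure (3.42%) and 186 were called lower (1.85%). *Sesn2*, *Xbp1* and *Atf4* were called higher, which makes 3 of 34 members (8.82%), and 0 were called lower. The shares of all genes are also the background for every list of members below. A list of few genes can hold 0 calls at such shares, so 0 calls does not set it apart. At an unadjusted p under 0.05 in edgeR, 9 of 34 members (26.5%) were higher, where 9.23% of all genes were, and 4 (11.8%) were lower, where 9.93% of all genes were. DESeq2 called 5 members higher (14.7%, against 6.69% of all genes) and 3 lower (8.82%, against 7.12%). In normalised CPM, both exposed pools lay above all control pools in 16 of 34 members, where 20.3% of all genes did so. They lay below all control pools in 4 members, where 19.6% of all genes did so. On the TPM scale *Atf6*, *Hspa5*, *Hsp90b1*, *Dnajb11*, *Canx* and *Derl1*, which are among the 16, overlapped between conditions. On that scale *Pdia3*, also among the 16, had both exposed pools below all control pools, as had *Atf5*, *Manf*, *Pdia4*, *P4hb* and *Herpud1*. Gene length is the same in every library, so both scales differ between pools only in how each library was scaled. TPM was not scaled by TMM and placed the exposed pools lower, relative to the control pools, than normalised CPM did. The shares of all genes on the TPM scale were not computed. The median log2 fold change was 0.06 over the 34 members and -0.03 over all genes tested. Scaling by the spike-in RNAs in place of TMM moved the median of all genes to -0.23 and that of the members to -0.18, so that 14 members in place of 18 had a positive estimate (*Dnajb11*, *Hyou1*, *Pdia3* and *Chac1* turned negative), and left 0 members called. The spike-ins took 0.6311%, 0.2485% and 0.3315% of the counts in control pools 1, 2 and 3. In exposed pools 1 and 3 they took 0.5419% and 0.3062%. Scaling by them thus carries a wide spread within each condition into every gene. The signs of *Sesn2*, *Xbp1* and *Atf4* were the same under both scalings. Whether a lower or higher value came from fewer cells of a kind or from less RNA per cell cannot be told apart in pooled cells.

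*Sesn2* was listed among the targets and feedback genes of the integrated stress response, and *Xbp1* and *Atf4* among the transcription factors. Their RNA levels do not show whether the PERK, IRE1α or ATF6 branch was active, which was not measured. *Sesn2* encodes sestrin 2, a stress-induced protein that restrains mTORC1 when leucine is scarce. It was counted 1094, 1249 and 975 times in the controls, against 3253 and 2195 times after exposure. Every exposed pool was above every control pool. The mean was 24.1 ± 2.41 normalised CPM (SD, n = 3) in control and 64.8 ± 16.7 CPM (n = 2) in exposed pools, a log2 fold change of 1.43 (SE 0.27, 95% interval 0.79 to 2.06, adjusted p = 0.0444 in edgeR). The call was lost without control pool 2 (adjusted p = 0.130), without exposed pool 1 (0.332) and without exposed pool 3 (0.105), while the log2 fold change stayed between 1.13 and 1.64.

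*Xbp1* encodes the factor activated by IRE1α, which drives chaperone, degradation and lipid synthesis genes. Control pools 1, 2 and 3 had 2863, 4824 and 5283 counts, and exposed pools 1 and 3 had 9540 and 8185. The lowest exposed pool was thus well above the highest control pool, although control pool 1 was itself low. The level rose from 93.5 ± 24.9 to 211 ± 19.0 normalised CPM, a log2 fold change of 1.18 (SE 0.25, 95% interval 0.59 to 1.76, adjusted p = 0.0625 in edgeR). Without control pool 2, exposed pool 1 or exposed pool 3 the adjusted p was 0.163, 0.355 or 0.182, with log2 fold changes between 0.99 and 1.38 over all libraries left out.

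*Atf4*, the central factor of the integrated stress response, was nearly constant among controls, with 10187, 10224 and 10584 counts in pools 1, 2 and 3. Exposed pools 1 and 3 had 15889 and 12921 counts, both higher. The mean was 226 ± 14.6 normalised CPM in control and 343 ± 43.8 CPM in exposed pools, a log2 fold change of 0.61 (SE 0.15, 95% interval 0.25 to 0.96, adjusted p = 0.0958 in edgeR). This value was the closest to the threshold among called members, and leaving out any 1 of the 5 libraries took it past it, with adjusted p between 0.108 and 0.506 and log2 fold changes between 0.46 and 0.70. *Asns*, a target of ATF4, stood just outside the threshold at 0.1002.

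The other transcription factors gave values near 0. *Ddit3* encodes CHOP, a factor tied to cell death after prolonged ER stress and a target of ATF4. It was counted 3468, 3797 and 4434 times in the controls, against 3779 and 3096 times after exposure. The conditions overlapped, at 85.0 ± 10.4 against 81.9 ± 10.0 normalised CPM, and the log2 fold change was -0.05 (SE 0.20, adjusted p = 0.920) with a 95% interval of -0.54 to 0.43, which leaves room for a change close to the fold threshold. *Ddit3* shares 10.9% of its exon bases with other genes, among them *Mars* on the opposite strand, and reads there were not counted for either gene. *Atf5*, the factor known from receptor feedback, was counted 5950, 5581 and 8781 times in the controls, against 5843 and 5134 times after exposure. Control pool 3 was apart from the other controls, and in normalised CPM both exposed pools (138 and 124) lay between the lowest and the highest control pool (114 and 192). The log2 fold change was -0.18 (SE 0.24, 95% interval -0.75 to 0.39, adjusted p = 0.732), and it was 0.08 without control pool 3.

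**Figure D2:**
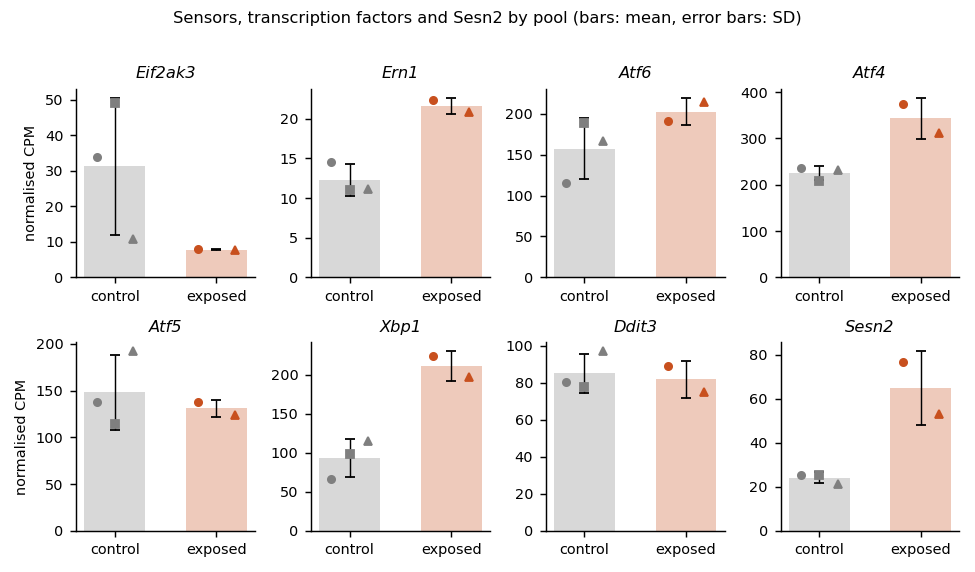
Normalised CPM of the 3 sensors, the 4 transcription factors and *Sesn2* in control (grey) and exposed (orange) pools. Bars are means, error bars are standard deviations (n = 3 and n = 2) and points are pools. For *Atf4*, *Xbp1* and *Sesn2* both exposed pools lie above all control pools, for *Atf5* and *Ddit3* the conditions overlap, and for *Eif2ak3* the control pools run from 10.9 to 49.0 CPM.

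None of the 3 sensors was called, where 3.42% of all genes were called higher and 1.85% lower. Their estimates pointed in different directions. In edgeR 1 sensor was higher and 1 lower at an unadjusted p under 0.05, and DESeq2 called 1 lower and 0 higher. *Eif2ak3*, which encodes PERK, had the estimate farthest from 0 among the members tested. It was counted 1456, 2397 and 497 times in the controls, against 337 and 320 times after exposure. Both exposed pools were lower than every control pool, but control pool 3 lay near them and far from the other controls. The means were 31.2 ± 19.2 and 7.83 ± 0.143 normalised CPM, the log2 fold change was -1.99 (SE 0.64, 95% interval -3.50 to -0.48) and the adjusted p was 0.166. Without control pool 3 the log2 fold change was -2.38 with an adjusted p of 0.0246, and DESeq2 gave -1.48 with 0.0204, so whether this gene is called depends on control pool 3 and on the tool. Of its exon bases, 8.05% are shared with the antisense gene *Gm43292*.

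*Ern1*, which encodes IRE1α, was rare but clear in its counts, at 629, 541 and 513 in the controls, against 948 and 864 after exposure. Both exposed pools were above all controls. The means were 12.3 ± 2.01 and 21.6 ± 1.02 normalised CPM, with a log2 fold change of 0.81 (SE 0.33, 95% interval 0.03 to 1.6, adjusted p = 0.247). *Atf6* was counted 4986, 9237 and 7659 times in the controls, against 8115 and 8871 times after exposure, a log2 fold change of 0.37 (SE 0.23, 95% interval -0.17 to 0.90, adjusted p = 0.430). Control pool 1 was low for *Atf6*, and control pool 2 came within a few CPM of the lower exposed pool, at 189 against 191 normalised CPM.

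Among the 6 targets and feedback genes of the integrated stress response, 1 was called, *Sesn2*, and the estimates of the other 5 had both signs. *Asns*, the amino acid synthesis enzyme whose CARE is shown above, was counted 1670, 1924 and 2340 times in the controls, against 3480 and 3297 times after exposure. All exposed values exceeded all control values, with means of 43.1 ± 6.96 and 80.8 ± 1.61 normalised CPM and a log2 fold change of 0.91 (SE 0.23, 95% interval 0.37 to 1.45). *Ppp1r15a* encodes GADD34, the inducible subunit that brings a phosphatase to eIF2α, and stood at 493 ± 59.7 normalised CPM in control and 699 ± 51.8 in exposed pools, a log2 fold change of 0.50 (adjusted p = 0.141). Its constitutive counterpart *Ppp1r15b* had overlapping values and a log2 fold change of -0.20 (95% interval -0.84 to 0.44, adjusted p = 0.724). *Trib3*, a pseudokinase gene induced by ATF4 and CHOP that dampens their activity, was counted 6640, 4680 and 6733 times in the controls, against 3713 and 2822 times after exposure. Its exposed values lay below all control values, opposite in direction to those of *Asns*, and both promoters hold a CARE. The *Trib3* means were 132 ± 31.9 and 77.8 ± 13.6 normalised CPM, a log2 fold change of -0.77 (SE 0.26, 95% interval -1.39 to -0.14, adjusted p = 0.188). *Chac1*, which degrades glutathione, had pools far apart after exposure, at 202, 230 and 151 counts in the controls, against 288 and 73 after exposure, and passed the count filter through the control pools alone (log2 fold change 0.01, 95% interval -1.61 to 1.64). DESeq2 called *Sesn2* and *Asns* higher and *Trib3* lower.

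ER chaperones and their helpers were the most abundant list. It held 0 called genes of 11 in edgeR, where 3.42% of all genes were called higher and 1.85% lower. At an unadjusted p under 0.05, 3 were higher (*Hspa5*, *Canx* and *Dnajb9*) and 1 lower (*Sdf2l1*), and DESeq2 called *Dnajb9* higher and *Sdf2l1* lower. *Hspa5* encodes BiP, the master chaperone and the usual readout of ER stress. It was counted 34893, 41855 and 43122 times in the controls, against 45847 and 45148 times after exposure. The means were 869 ± 66.8 and 1085 ± 8.10 normalised CPM, with both exposed pools above all controls, and the log2 fold change was 0.32 (SE 0.12, 95% interval 0.03 to 0.61, adjusted p = 0.223). On the TPM scale the conditions overlapped, since control pool 3 (765 TPM) exceeded exposed pool 1 (751 TPM). An increase of more than 0.61 on the log2 scale lay outside the interval for *Hspa5*. Its partner in the ER lumen, *Hsp90b1*, had a log2 fold change of 0.25 (95% interval -0.02 to 0.53), the lectin chaperone *Canx* 0.31 (0.00 to 0.62) and the soluble lectin chaperone *Calr* -0.01 (-0.41 to 0.40).

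The BiP co-chaperones had estimates of both signs. *Dnajb9* (ERdj4), a J-protein gene controlled by XBP1, was counted 7006, 8782 and 10089 times in the controls, against 15153 and 10860 times after exposure. Its normalised level was 188 ± 29.7 against 310 ± 66.7 CPM, above all controls in both exposed pools, with a log2 fold change of 0.72 (SE 0.20, 95% interval 0.25 to 1.20, adjusted p = 0.126). *Sdf2l1*, whose product forms a complex with the J-protein ERdj3 (*Dnajb11*), had a negative estimate and was counted 3551, 2677 and 3236 times in the controls, against 1514 and 1506 times after exposure. The *Sdf2l1* means were 69.3 ± 13.9 and 36.0 ± 0.525 normalised CPM, 52.0% of the control level, with a log2 fold change of -0.94 (SE 0.26, 95% interval -1.55 to -0.33, adjusted p = 0.121). Its partner *Dnajb11* had a log2 fold change of 0.19 (-0.14 to 0.52). *Dnajc3* was at -0.06 (-0.65 to 0.52) and the nucleotide exchange factor *Hyou1* at 0.11 (-0.40 to 0.62). The secreted stress proteins *Manf* and *Creld2* were at -0.29 (-0.84 to 0.25) and -0.02 (-0.61 to 0.56). In normalised CPM, *Dnajc3*, *Hyou1*, *Manf* and *Creld2* overlapped between control and exposed pools. The summed level of the list was 2977 TPM in control and 3006 TPM in exposed pools. TPM was not scaled by TMM, and the sums in normalised CPM were not computed.

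The 4 disulfide isomerases, which form and correct disulfide bonds in the ER, had the narrowest spread of estimates. None was called in edgeR, none had an unadjusted p under 0.05 and DESeq2 called 0. Among all genes, edgeR called 3.42% higher and 1.85% lower, so 0 calls among 4 genes does not set them apart. *Pdia3*, the most abundant, was counted 30265, 30326 and 29833 times in the controls, against 31227 and 29282 times after exposure. The normalised levels were 658 ± 41.8 and 721 ± 19.6 CPM, with a log2 fold change of 0.13 (SE 0.12, 95% interval -0.16 to 0.42, adjusted p = 0.608). The values were -0.24 for *Pdia4*, -0.06 for *Pdia6* and -0.12 for *P4hb*, and the widest interval, that of *Pdia4*, ran from -0.70 to 0.23. A doubling was thus outside the interval for each of the 4 genes.

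ER-associated degradation, which extracts misfolded proteins for the proteasome, was measured by 7 members, of which 6 were tested. In edgeR 0 of the 6 were called, where 3.42% of all genes were called higher and 1.85% lower. At an unadjusted p under 0.05, 0 were higher and 1 lower, and DESeq2 called 0. *Edem1*, a lectin that hands misfolded glycoproteins to the degradation machinery and a known XBP1 target, was counted 1134, 2725 and 2097 times in the controls, against 508 and 1061 times after exposure. The highest and lowest pool of each condition differed by a factor of 2.12 in control and 2.14 in exposed pools. The conditions nearly met, at 26.3 normalised CPM in control pool 1 and 25.6 in exposed pool 3. The means were 42.6 ± 14.9 and 18.8 ± 9.67 normalised CPM, with a log2 fold change of -1.18 (SE 0.46, 95% interval -2.28 to -0.08, adjusted p = 0.234). The ubiquitin ligase *Syvn1* (HRD1) had a log2 fold change of 0.44 (-0.09 to 0.97) and its partner *Sel1l* -0.13 (-0.51 to 0.25). Among the derlins, which form part of the exit channel, *Derl1* was at 0.23 (-0.22 to 0.69) and *Derl2* at 0.32 (-0.13 to 0.78), the latter with 58.6 ± 0.957 normalised CPM in control and 73.3 ± 2.46 in exposed pools. *Herpud1*, which recruits this machinery, had 208 normalised CPM in exposed pool 3, apart from the 297 to 403 CPM of the other 4 libraries, and a log2 fold change of -0.37 (-0.98 to 0.23). The summed level of the 7 genes was 819 TPM in control and 626 TPM in exposed pools, and *Herpud1* alone accounted for 527 and 361 TPM of these sums. Without TMM scaling, TPM placed the exposed pools lower than normalised CPM did. In normalised CPM *Herpud1* had means of 362 in control and 280 in exposed pools, a smaller relative difference.

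**Figure D3:**
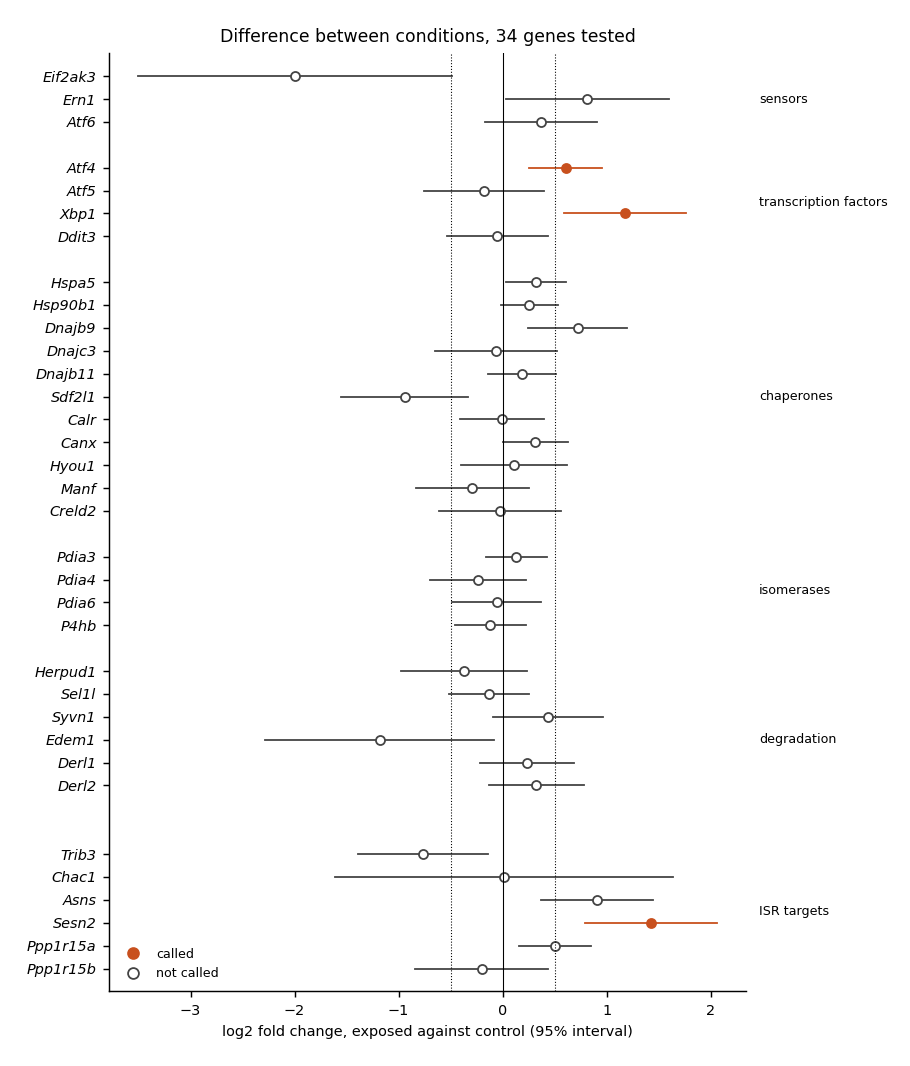
Log2 fold change of exposed against control pools for the 34 members tested, with 95% intervals from edgeR, grouped by role. Filled orange points are called and open points are not, and dotted lines mark the fold threshold of 0.5 in each direction. *Sesn2* (1.43), *Xbp1* (1.18) and *Atf4* (0.61) are called, the disulfide isomerases lie close to 0, and *Eif2ak3* and *Chac1* have the widest intervals.

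Grouped by promoter element, the 8 tested members with an ERSE had log2 fold changes between -0.06 (*Dnajc3*) and 0.44 (*Syvn1*), with a median of 0.12. None of the 8 was called in edgeR or DESeq2, and 2, *Hspa5* and *Canx*, were higher at an unadjusted p under 0.05. The background for each class is that of all genes, with 3.42% called higher and 1.85% lower in edgeR. The 4 members with a CARE ranged from -0.77 (*Trib3*) to 0.91 (*Asns*), with 0 called in edgeR, 1 higher and 1 lower at an unadjusted p under 0.05, and the same 2 genes called by DESeq2. The 3 called members were among the 17 tested members whose promoter window held neither element. The absence of these letters from a window of this length says nothing about the factor elsewhere in the gene.

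**Figure D4:**
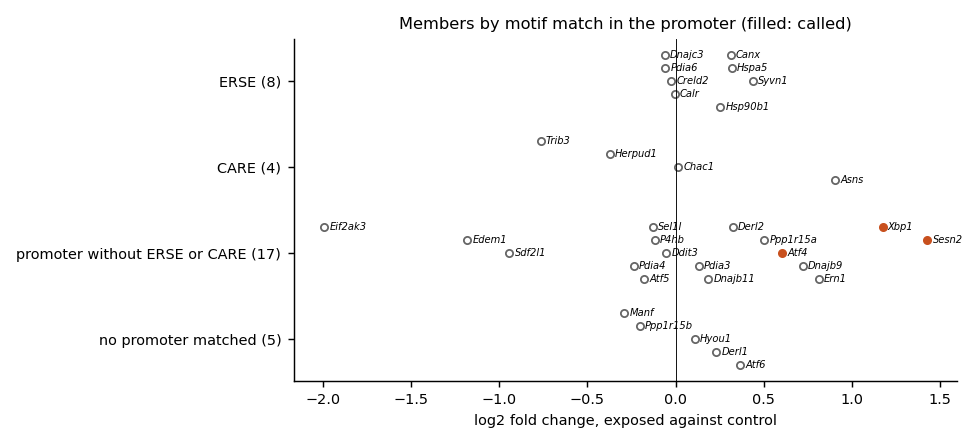
Log2 fold change of each of the 34 members tested, by whether an ERSE or a CARE was matched in the promoter window, with the number of genes per class in brackets. Called genes are filled orange. The 8 genes with an ERSE lie between -0.06 and 0.44, whereas the 4 genes with a CARE spread from -0.77 to 0.91 and the called genes *Atf4*, *Xbp1* and *Sesn2* are in the class without either match.

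A further 145 genes of the same pathways, in 6 lists, were measured, of which 125 were tested, 6 were called higher (4.8%, against 3.42% of all genes) and 1 was called lower (0.80%, against 1.85%), with a median log2 fold change of 0.07. DESeq2 called 9 of the 125 higher (7.2%, against 6.69% of all genes) and 12 lower (9.6%, against 7.12%). At an unadjusted p under 0.05 in edgeR, 13 were higher (10.4%, against 9.23%) and 12 lower (9.6%, against 9.93%). These shares lie near those of all genes, which are also the background for each of the 6 lists. Of the 40 genes of ATF4 targets, amino acid supply and tRNA charging, 28 were tested and 3 were called higher, with a median of 0.18, while 6 were higher and 1 lower at an unadjusted p under 0.05 and DESeq2 called 5 higher and 1 lower. *Slc38a2*, an amino acid transporter gene induced by ATF4, had a log2 fold change of 1.62 (adjusted p = 0.0357), the cysteinyl-tRNA synthetase gene *Cars* 0.89 (0.0562) and the mitochondrial folate enzyme gene *Mthfd2* 0.94 (0.0935). All 3 had both exposed pools above all control pools, as *Asns* had, which nearly follows from a call on so few pools. In the list as a whole, 11 of the 28 tested genes lay above in this way and 3 lay below. Among all genes 20.3% lay above and 19.6% below. Among the 14 tested genes of eIF2 kinases, eIF2 and eIF2B, 0 were called in edgeR or DESeq2 and 1 was higher at an unadjusted p under 0.05, with a median of 0.21. Of 12 tested further regulators, 1 was called, *Creb3l2*, a membrane-bound transcription factor gene related to *Atf6*. It was counted 736, 1041 and 744 times in the controls, against 3044 and 4100 times after exposure, a log2 fold change of 2.23 (SE 0.27, adjusted p = 0.00989), larger than that of any member. The 12 regulators ranged from -3.53 to 2.23, with 1 higher and 3 lower at an unadjusted p under 0.05 in edgeR and also by DESeq2. With spike-in scaling 0 of the 145 genes were called higher.

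The lists of the ER itself have the same background, with 3.42% of all genes called higher and 1.85% lower in edgeR. In the translocation and glycosylation list DESeq2 called 1 gene higher and 1 lower, where it called 6.69% and 7.12% of all genes. Of 33 tested genes of translocation and glycosylation, *Prkcsh*, a glucosidase subunit gene, was higher (0.62, adjusted p = 0.0926) and the signal peptidase subunit gene *Spcs3* lower (-0.68, adjusted p = 0.0589), with a median of -0.10. Among 15 tested further folding enzymes 0 were called in edgeR, 0 were higher and 3 lower at an unadjusted p under 0.05 and DESeq2 called 3 lower, with a median of -0.15. Of 23 tested further degradation genes, *Edem2*, a mannosidase-like relative of *Edem1*, was higher at 0.90 (adjusted p = 0.0774), where *Edem1* stood at -1.18, and the median was 0.05. In that list 4 genes were higher and 4 lower at an unadjusted p under 0.05, DESeq2 called 2 higher and 4 lower, and the lowest log2 fold change was -2.01.

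**Figure D5:**
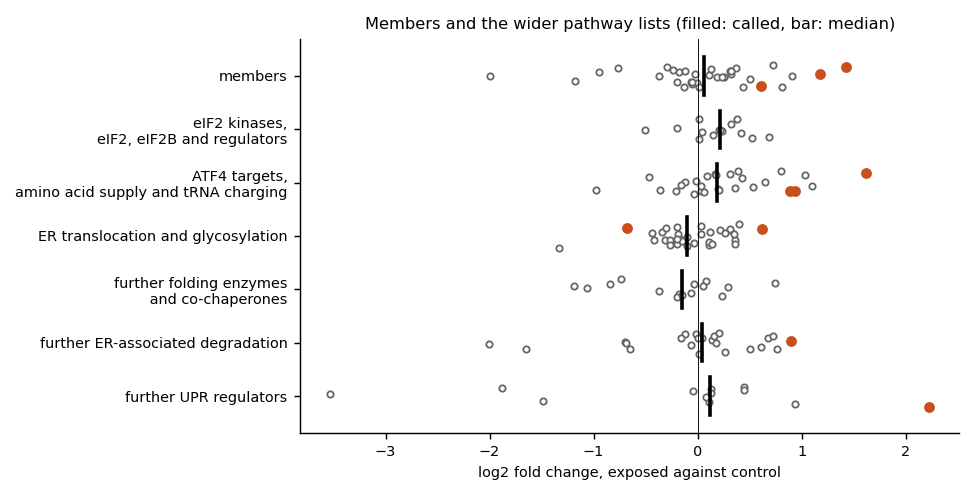
Log2 fold change of exposed against control pools for the 34 members tested and for the 125 tested genes of 6 wider pathway lists. Each point is a gene, filled orange where called, and the black bar is the median of the list. Medians lie between -0.15 and 0.21, and the highest called value is that of *Creb3l2* at 2.23.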

How the data were processed

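Per the labels, the authors mapped reads with STAR 2.7.0a on GRCm38 and counted them on exons with featureCounts 1.6.3. The deposited values are raw counts per gene, without normalisation. Strand was not used, and reads that map to several genes or places were not counted; 13 members share exon bases with another gene, none of them more than 20% of their length. Pools were assigned to conditions from the labels.

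The 5 libraries were fitted together by condition in edgeR 4.0.16 under R 4.3.3, using TMM factors, robust quasi-likelihood dispersions and glmQLFTest. A gene entered the test when all libraries of either condition had 141 counts or more, the lowest point between the modes of the log2 count density, and p-values were adjusted by Benjamini-Hochberg over all 10047 genes. Normalised CPM were scaled by TMM, and TPM used the exon lengths of the count tables without TMM scaling. In data simulated with 200 changed genes, 14% of those changed 2-fold, 72% of 4-fold, 88% of 8-fold and 98% of 16-fold were called, with 14 false calls. The alternatives were DESeq2 1.42.0 with apeglm 1.24.0, DESeq2's size factors, spike-in scaling, an adjusted p under 0.05, no fold threshold, glmTreat, no robust estimation, 2 other count filters, a replicate block and each library left out. Summaries were made in Python 3.11.15.

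The members and the pathway, marker and motif lists were chosen with earlier results of these data known. Counts in every library were to be given for called members, sensors, transcription factors, the highest and lowest by TPM and the 3 largest estimates. Those of *Asns*, *Dnajb9*, *Sdf2l1*, *Trib3*, *Chac1* and *Ptprc* are given beyond this rule and were chosen after their values were seen. With 2 exposed pools, the spread within that condition rests on 1 difference per gene. One list of cell type markers is not reported here.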

Additional observations from a re-analysis of the deposited data

How the results depend on the processing

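The signs of *Sesn2*, *Xbp1* and *Atf4* were the same in all 15 alternatives, but in many of them a change of sign was not possible or hardly so. The stricter adjusted p, no fold threshold, glmTreat and no robust estimation keep the main estimate. Leaving out 1 library could hardly turn genes whose exposed pools both lay above all control pools. The calls did change: *Sesn2* was called in 9 of the 15, *Xbp1* in 7 and *Atf4* in 4. DESeq2 called 5 members higher and 3 lower, with 672 higher and 715 lower among all genes and 12 of the wider pathway genes lower. Spike-in scaling left 0 members and 0 wider pathway genes called higher, with 94 and 48 of all genes higher and lower and a median of -0.18 for the members. An adjusted p under 0.05 left 1 member higher, 190 and 90 of all genes, and 2 and 0 of the wider pathway genes. glmTreat left 0 members, 147 and 55 of all genes, and 2 and 0 wider pathway genes. A filter of 10 counts in 2 libraries left 1 member, 162 and 74 of all genes, and 2 and 0 wider pathway genes, and with no filter 0 wider pathway genes were lower. With the replicate block 0 members were called, with 11 higher and 0 lower among all genes and 0 and 0 of the wider pathway genes. Control and exposed animals shared the handling days, but the labels do not tie pool numbers to days, and only 2 numbers are shared. The deviations of pools with the same number correlated at 0.05 and -0.08. With 2 exposed pools, the deviations of one mirror those of the other, so these values can neither show nor exclude pairing. Because the link to days is missing, the numbers were not taken to pair the pools, and the block was kept as an alternative. In the block fit the adjusted p was 0.235 for *Sesn2*, 0.291 for *Xbp1* and 0.292 for *Atf4*, on fewer residual degrees of freedom.

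With each library left out in turn, 0 to 4 members were higher and 0 to 1 lower, 93 to 352 of all genes were higher and 19 to 434 lower, 1 to 4 of the wider pathway genes were higher and 0 to 5 lower, and the median of the members lay between 0.055 and 0.15. Without control pool 2, exposed pool 1 or exposed pool 3 no member was called higher. Without control pool 3, *Sesn2*, *Asns*, *Xbp1* and *Dnajb9* were higher and *Eif2ak3* lower. The log2 fold change of *Atf5* lay between -0.33 and 0.077 and that of *Ddit3* between -0.20 and 0.075. A fit without 1 exposed pool assumes that the lone sample varies like the control pools. The causes were not tested. *Derl3* was too low to be tested, and simulated 2-fold changes were mostly missed.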
